A study of Mus musculus with 24 samples.

Results

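Medullary thymic epithelium and the self-antigen genes it transcribes were followed through 10 genes. These were chosen by their known roles in these cells, with earlier results of these data known. They were Aire, Fezf2, Tnfrsf11a, Krt5, Krt14, Cldn4, Csn2, Ins2, Avil and Trpm5. All gene probes that carried those symbols were taken, which gave 12 probes of 41174 gene probes and 10 of 28786 gene symbols on the array. For 8 genes the symbol in the files was used, and Fezf2 (listed as Zfp312) and Csn2 (listed as Csnb) were matched through their RefSeq accessions. All 12 probes were well above background in thymus on at least 6 arrays and entered the tests, together with 35173 other probes of 35185.

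Medullary thymic epithelial cells show developing T cells a sample of the body's proteins, so that cells that react to them are removed or become regulatory. The transcriptional regulators Aire and Fezf2 drive the transcription of tissue-restricted genes such as those for insulin and milk caseins, and signals through RANK (Tnfrsf11a) bring the cells to the Aire-expressing state. Some medullary cells go on to resemble cells of other epithelia, among them thymic tuft cells, which carry the taste channel Trpm5 and the actin-binding protein advillin (Avil).

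Whole thymus RNA of 24 mice was read on 2-colour arrays, with 6 mice in each of 4 groups. All mice were 15 weeks old and of the C57BL/6 strain, with 3 females and 3 males per genotype, and the labels do not tie a sex to a mouse. The double knockout lacked Cdkn1b, which encodes the cyclin-dependent kinase inhibitor p27Kip1, and Stmn1, which encodes the microtubule destabiliser stathmin. The p27 knockout lacked only Cdkn1b, the stathmin knockout lacked only Stmn1, and wild type carried both. The series asks how p27 and stathmin control cell proliferation in the living animal. The labels give no detail of the knockout alleles. Thymus carried Cy5 on each array and a common fibroblast RNA pool of all genotypes carried Cy3, so a value below is the log2 ratio of thymus over fibroblasts unless stated otherwise. In whole thymus, fewer cells of a type and less RNA per cell cannot be told apart.

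The targeted genes were checked in each library. Stmn1 (A_52_P319161) lay between -3.8 and -2.84 in double knockouts and between -3.65 and -1.87 in stathmin knockouts, against 0.79 to 3.22 in p27 knockouts and 2.69 to 3.34 in wild type. Cdkn1b (A_51_P169173) lay between -0.96 and -0.25 in double knockouts and between -1.03 and -0.42 in p27 knockouts, against -0.17 to 1.44 in stathmin knockouts and -0.21 to 0.85 in wild type. By these probes no array went against its label. The Cdkn1b probe A_51_P146126 separated the genotypes in the same way on the arrays where it had a value. Its highest value was 0.97 in double knockouts and 0.98 in p27 knockouts, against a lowest of 1.21 in stathmin knockouts and 1.37 in wild type. It had values on only 5 double knockout and 5 wild-type arrays. The Stmn1 probe A_51_P495641 did not, with 1.22 to 2.87 in double knockouts, -0.76 to 4.09 in p27 knockouts, 1.72 to 2.29 in stathmin knockouts and 3.22 to 3.87 in wild type. A p27 knockout array thus read below every double and stathmin knockout on that probe. The Cdkn1b probe A_52_P673863 overlapped between all 4 genotypes, and whether these last probes lie outside the deleted parts was not known.

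Several arrays stood apart. The 99th percentile of the Cy5 signal was 200 to 320 kilo-units in double knockouts (median 234), 19.4 to 171 in p27 knockouts (78.4), 131 to 340 in stathmin knockouts (244) and 56.3 to 286 in wild type (214). Double and p27 knockouts did not overlap in brightness. p27 knockout 6 was the dimmest array at 19.4 and correlated on average by 0.213 with the others, p27 knockout 5 by 0.559, and the remaining arrays by 0.767 to 0.856. Some thymic marker genes were at or below the fibroblast level in p27 knockout 6, with Rag1, the recombinase of developing T cells, at -0.04 and Prss16, the serine protease of cortical epithelium, at -1.83. The thymic markers Ptcra and Cd8a stayed above that level on every p27 knockout array, with lowest values of 1.46 and 0.33. Differences of the 10 genes from the p27 knockout that passed the test are therefore given with and without p27 knockout arrays 5 and 6. A slide carried 4 arrays, 1 per genotype, and a genotype had the same place on all 6 slides, so that place on the slide and genotype cannot be told apart.

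Each gene was above the fibroblast pool in most thymi except Tnfrsf11a, Ins2 and Avil. Casein beta (Csn2) and Krt5 had the highest ratios of the set in wild type, with means of 3.38 ± 1.03 and 4.29 ± 0.62 (SD, n = 6), although ratios of different probes do not rank the levels of genes. The Csn2 signal of the fibroblast channel was above background on 0 of 24 arrays, that of Fezf2 on 1, of Cldn4 on 4 and of Trpm5 on 5. Ratios of these genes are thus set against a channel at or near background, while Krt5, Krt14 and the brighter Tnfrsf11a probe were measured in both channels on 24 of 24 arrays.

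Between the double and the p27 knockout 6 of the 12 probes passed the test, all higher in the double knockout: Avil, Trpm5, Csn2, Fezf2, Cldn4 and the brighter Tnfrsf11a probe. Over all probes 30% passed in this comparison and 13.3% passed as higher, so the members' count stands against a broad difference between these groups of arrays. Against wild type 0 of the 12 probes passed, and Avil, Fezf2, Csn2 and Trpm5 were 2.06-fold to 4.57-fold higher in the double knockout at unadjusted p under 0.05. The keratins Krt5 and Krt14, Ins2 and Aire itself passed in 0 comparisons of all 24 arrays.

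**Figure D1:**
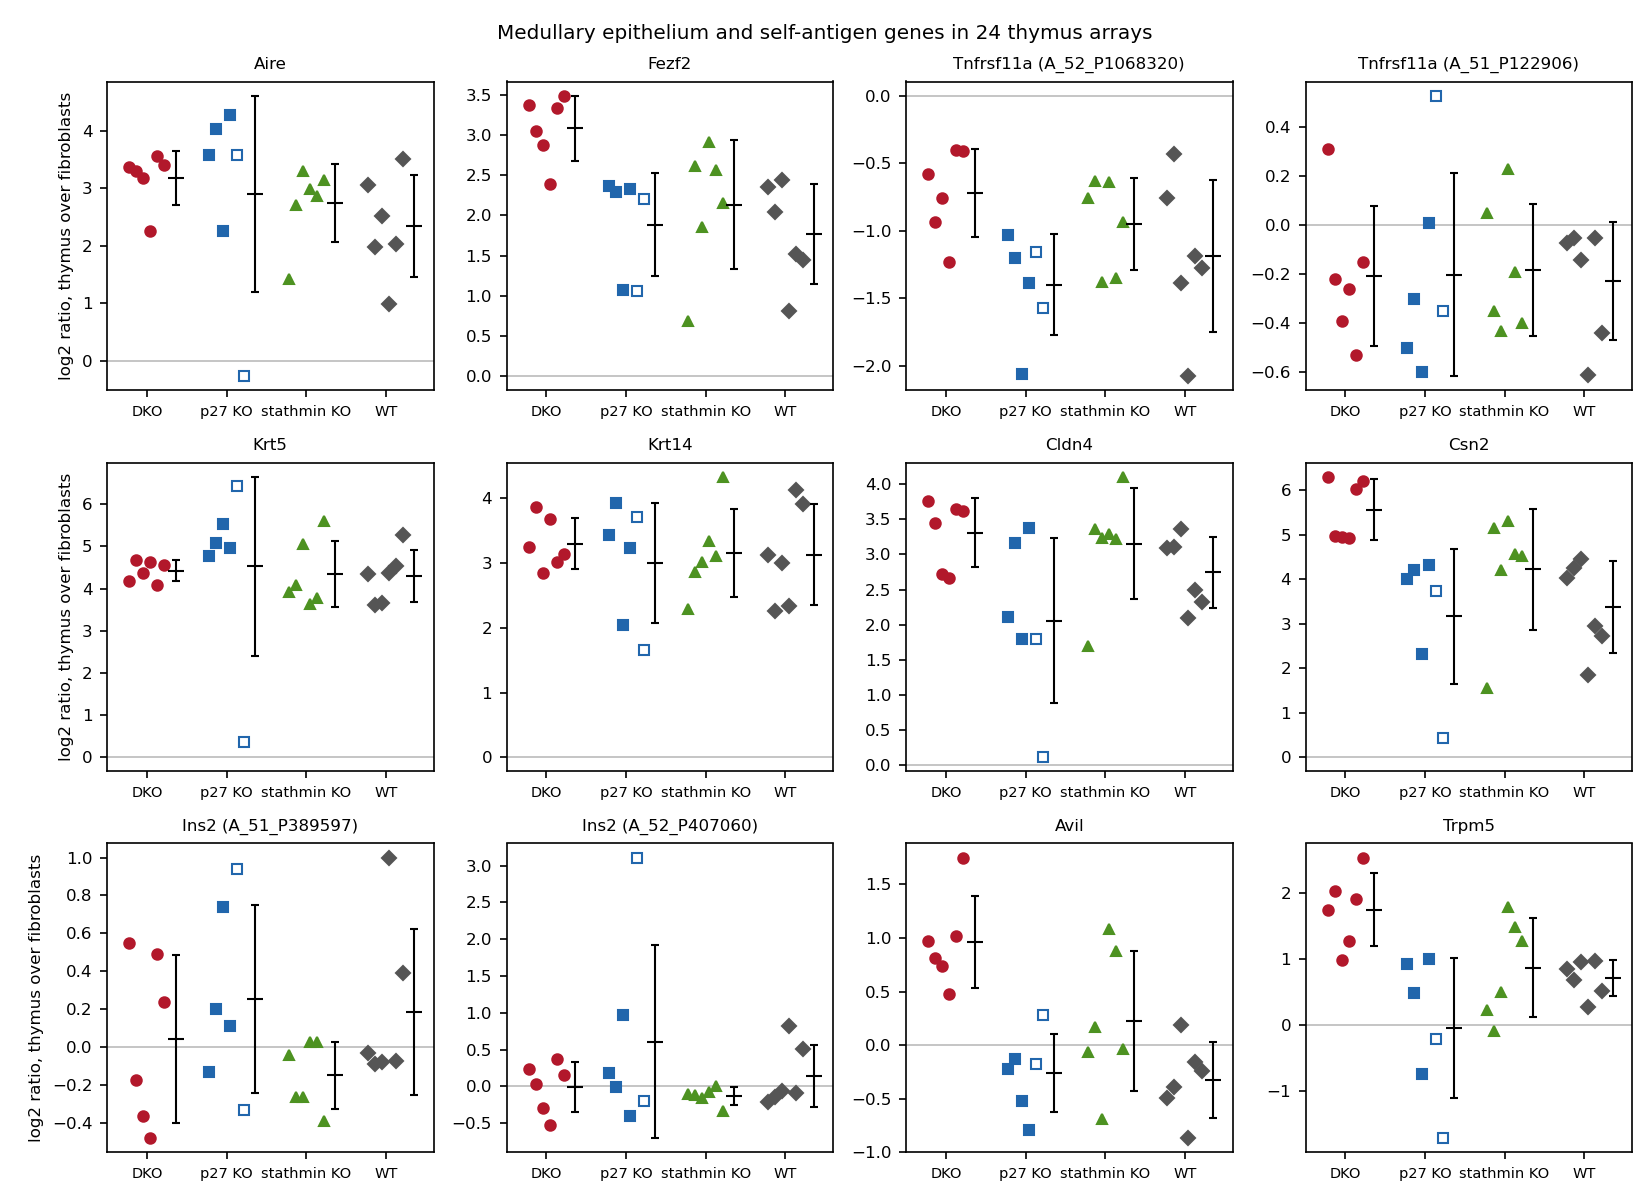
Log2 ratio of thymus over fibroblasts (vertical axis) for the 12 probes of the 10 genes, in 6 arrays each of double knockout (DKO), p27 knockout (p27 KO), stathmin knockout (stathmin KO) and wild type (WT). Points are arrays, open squares are p27 knockout arrays 5 and 6, and black bars are mean ± SD; Avil and Csn2 lie higher in all DKO arrays than in any p27 KO or WT array.

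The promoters of 4 genes are shown because Csn2, Trpm5 and Avil passed between the double and the p27 knockout with and without the dim arrays, and Aire is the regulator set beside them below. Each is the 250 bases before the annotated start, 5′ to 3′ on the gene's strand, from RefSeq on GRCm38.p6. For Csn2 and Avil the start used lies inside the outermost bounds of the gene in RefSeq, so that these windows overlap the gene as annotated. They lie at chr5:87699426-87699675 (minus strand) for Csn2, chr7:143094643-143094892 (minus) for Trpm5, chr10:78043611-78043860 (minus) for Aire and chr10:127000459-127000708 (plus) for Avil. Capitals mark a match to the TATA box TATAAA or to the STAT motif TTCNNNGAA.
Csn2: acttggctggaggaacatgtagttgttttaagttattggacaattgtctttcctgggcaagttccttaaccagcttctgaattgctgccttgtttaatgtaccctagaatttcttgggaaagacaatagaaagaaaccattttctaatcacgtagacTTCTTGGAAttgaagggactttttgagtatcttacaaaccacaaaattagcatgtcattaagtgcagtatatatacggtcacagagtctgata
Trpm5: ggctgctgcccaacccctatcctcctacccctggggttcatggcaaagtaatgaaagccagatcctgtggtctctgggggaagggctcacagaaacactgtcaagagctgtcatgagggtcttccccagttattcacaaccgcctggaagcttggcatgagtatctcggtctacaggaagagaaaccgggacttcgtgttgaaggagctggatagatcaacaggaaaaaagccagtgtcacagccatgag
Aire: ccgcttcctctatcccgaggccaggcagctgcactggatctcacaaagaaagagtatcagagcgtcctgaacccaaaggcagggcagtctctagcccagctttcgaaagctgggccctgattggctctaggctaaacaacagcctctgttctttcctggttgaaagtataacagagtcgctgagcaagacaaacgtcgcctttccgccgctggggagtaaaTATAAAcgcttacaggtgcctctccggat
Avil: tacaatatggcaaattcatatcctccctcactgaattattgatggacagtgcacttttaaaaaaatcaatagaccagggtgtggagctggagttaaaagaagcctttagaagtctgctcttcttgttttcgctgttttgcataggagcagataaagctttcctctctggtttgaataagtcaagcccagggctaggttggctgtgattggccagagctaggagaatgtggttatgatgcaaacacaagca
Promoters were found for 9 of the 10 genes (not Ins2). TATAAA, searched on both strands, occurred in 1 of these 9 windows, that of Aire, 29 to 24 bases before the start, and in 12.4% of 32851 RefSeq windows of the same length. The motif of STAT factors, which carry the prolactin signal to casein genes in mammary gland, occurred in 1 of the 9, that of Csn2, as TTCTTGGAA 93 to 85 bases before the start, and in 7.02% of all windows. The octamer ATGCAAAT, which POU factors such as the tuft cell regulator Pou2f3 can bind, occurred in 0 of the 9 and in 1.6% of all windows. The TATA and STAT matches do not overlap another motif searched, and each match is a description of letters only.

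Aire encodes the autoimmune regulator, which releases transcription of many tissue genes in mature medullary cells. Its lowest, median and highest values were 2.26, 3.32 and 3.55 in double knockouts, -0.27, 3.57 and 4.27 in p27 knockouts, 1.42, 2.92 and 3.3 in stathmin knockouts, and 0.98, 2.27 and 3.51 in wild type. All groups overlapped, and the p27 knockout held both the lowest and the highest array. The double knockout minus wild type difference was 0.83 ± 0.57 (SE; 1.78-fold, limma adjusted p = 1), with 5 of 6 slides above 0. Double minus p27 knockout was 0.27 ± 0.57 (adjusted p = 0.735) and turned to -0.36 without p27 knockout arrays 5 and 6. The order of the group means was double knockout (3.18 ± 0.46), p27 knockout (2.91 ± 1.7), stathmin knockout (2.73 ± 0.68) and wild type (2.34 ± 0.89), and no neighbours in it differed beyond their SD.

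Fezf2 encodes a zinc finger transcription factor that serves a set of self-antigens largely apart from those of Aire. It measured 2.39, 3.19 and 3.48 (lowest, median, highest) in double knockouts, 1.06, 2.25 and 2.37 in p27 knockouts, 0.69, 2.36 and 2.91 in stathmin knockouts, and 0.81, 1.78 and 2.44 in wild type. Every double knockout array was above every p27 knockout array, and 1 wild-type array reached into the double knockout range. The gene was 2.29-fold higher in the double than in the p27 knockout (log2 difference 1.20 ± 0.35 SE, adjusted p = 0.0164), with 6 of 6 slides above 0. Without p27 knockout arrays 5 and 6 the difference was 1.07 with an adjusted p of 0.0593, no longer past the threshold. Against wild type it was 1.32 ± 0.35 (2.49-fold, adjusted p = 0.273) and above 0 on 6 of 6 slides.

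Tnfrsf11a encodes RANK, the receptor through which lymphoid cells bring medullary precursors to maturity. Its brighter probe (A_52_P1068320) measured -1.23, -0.67 and -0.4 in double knockouts, -2.06, -1.29 and -1.03 in p27 knockouts, -1.38, -0.85 and -0.63 in stathmin knockouts, and -2.08, -1.23 and -0.43 in wild type. Thymus was below the fibroblast pool on all 24 arrays, and the groups overlapped. It was 1.6-fold higher in the double than in the p27 knockout (0.68 ± 0.24, adjusted p = 0.0385), above 0 on 5 of 6 slides, and 0.70 (adjusted p = 0.0755) without p27 knockout arrays 5 and 6. Leaving out any 1 of p27 knockouts 3 and 6 or double knockouts 1, 3, 5 and 6 also ended the call, with differences of 0.55 to 0.69 and adjusted p of 0.0542 to 0.0939. A second probe (A_51_P122906) lay between -0.61 and 0.53 on all arrays, with Cy5 above background on 21 and Cy3 on 12 of 24. It gave a difference of -0.01 ± 0.19 and correlated with the brighter probe by 0.37 over the 24 arrays, so the probes disagree.

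The keratins Krt5 and Krt14 form the intermediate filaments of basal and medullary epithelium. Krt5 measured 4.08, 4.47 and 4.68 in double knockouts, 0.36, 5.03 and 6.44 in p27 knockouts, 3.64, 4 and 5.59 in stathmin knockouts, and 3.6, 4.36 and 5.27 in wild type. Krt14 measured 2.85, 3.18 and 3.86 in double knockouts, 1.66, 3.33 and 3.92 in p27 knockouts, 2.28, 3.06 and 4.33 in stathmin knockouts, and 2.26, 3.05 and 4.13 in wild type. For both keratins the groups overlapped, and the extremes of Krt5 were p27 knockout arrays 6 (lowest) and 5 (highest). The double knockout minus wild type difference was 0.13 ± 0.64 for Krt5 and 0.17 ± 0.40 for Krt14 (limma adjusted p = 1 each). Double minus p27 knockout was -0.11 ± 0.64 for Krt5 (adjusted p = 0.912) and 0.30 ± 0.40 for Krt14 (adjusted p = 0.578). Array 6 decided the Krt5 value: without p27 knockout 6 it was -0.94 and passed as lower in the double knockout (adjusted p = 0.049), and without both arrays 5 and 6 it was -0.67 (adjusted p = 0.162).

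Cldn4 encodes a tight-junction claudin that marks the medullary lineage. Its values were 2.66, 3.54 and 3.76 in double knockouts, 0.11, 1.96 and 3.37 in p27 knockouts, 1.69, 3.26 and 4.11 in stathmin knockouts, and 2.1, 2.8 and 3.36 in wild type. The groups overlapped, and the p27 knockout had the widest spread, with Cy5 above background on 5 of its 6 arrays. Cldn4 was 2.38-fold higher in the double than in the p27 knockout (1.25 ± 0.43, adjusted p = 0.0335), above 0 on 6 of 6 slides. Without p27 knockout arrays 5 and 6 the difference was 0.70 (adjusted p = 0.196). Leaving out any 1 of p27 knockouts 3, 5 and 6 or double knockouts 1, 2, 5 and 6 also ended the call, with differences of 0.86 to 1.23 and adjusted p of 0.0555 to 0.0795. Against wild type it was 0.56 ± 0.43 (adjusted p = 1).

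Csn2 encodes beta-casein, a milk protein made in bulk by the mammary gland and transcribed in medullary epithelium as a self-antigen. It measured 4.94, 5.5 and 6.31 in double knockouts, 0.44, 3.86 and 4.32 in p27 knockouts, 1.56, 4.54 and 5.31 in stathmin knockouts, and 1.85, 3.48 and 4.45 in wild type. By the ratio, all 6 double knockout arrays were above all p27 knockout and all wild-type arrays, and they overlapped with the stathmin knockout. In raw Cy5, double knockouts (3221 to 10530) overlapped with wild type (509 to 5061) and not with the p27 knockout (193 to 2353). Wild type 5 and double knockout 4 had similar raw signals (Cy5 3480 and 3221, Cy3 141 and 146) and ratios of 2.95 and 4.94. Csn2 had the largest log2 difference of the set, 2.40 ± 0.64 over the p27 knockout (5.28-fold, adjusted p = 0.0105) and 2.19 ± 0.64 over wild type (4.57-fold, adjusted p = 0.358), with 6 of 6 slides above 0 in each. Without p27 knockout arrays 5 and 6 the difference from the p27 knockout was 1.86 (adjusted p = 0.0468).

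Ins2 encodes preproinsulin 2, the classic Aire-dependent self-antigen. The probe A_51_P389597, printed in 10 spots, measured -0.48, 0.04 and 0.55 in double knockouts, -0.33, 0.16 and 0.94 in p27 knockouts, -0.39, -0.15 and 0.03 in stathmin knockouts, and -0.09, -0.05 and 1 in wild type. The single-spot probe A_52_P407060 measured -0.53, 0.09 and 0.37 in double knockouts, -0.41, 0.09 and 3.11 in p27 knockouts, -0.34, -0.11 and 0.01 in stathmin knockouts, and -0.22, -0.08 and 0.82 in wild type. Most ratios lay near 0, so thymus and fibroblast signals were close, and the highest value was that of p27 knockout 5, at 3.11 on the single-spot probe, where the probe of 10 spots read 0.94. The probes correlated by 0.77 over the 24 arrays. By the probe of 10 spots, double minus p27 knockout was -0.21 ± 0.24 and double knockout minus wild type -0.14 ± 0.24. By the single-spot probe they were -0.62 ± 0.39 and -0.15 ± 0.39, and 0 of these passed the test.

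Avil encodes advillin, an actin-bundling protein of sensory neurons and tuft cells. Its lowest, median and highest values were 0.48, 0.89 and 1.75 in double knockouts, -0.79, -0.2 and 0.28 in p27 knockouts, -0.69, 0.07 and 1.08 in stathmin knockouts, and -0.87, -0.32 and 0.19 in wild type. Every double knockout array was above every p27 knockout and every wild-type array, while the stathmin knockout spanned both ranges. Avil was 2.33-fold higher in the double than in the p27 knockout (1.22 ± 0.27, adjusted p = 0.00459). Against wild type it was 2.44-fold higher (1.29 ± 0.27) and missed the threshold after adjustment over all probes (adjusted p = 0.102). Both differences were above 0 on 6 of 6 slides, and that from the p27 knockout was 1.37 (adjusted p = 0.0196) without p27 knockout arrays 5 and 6. Of the wild-type arrays, 5 of 6 were above background in Cy5. Wild type 5 had a raw Cy5 signal of 713, within the double knockout range of 555 to 1445. Its ratio was -0.16 with a Cy3 signal of 447, against 232 to 322 on the other wild-type arrays. The lowest stathmin knockout ratio, -0.69 in array 3, had a Cy3 signal of 555. The lack of overlap with wild type thus holds for the ratio and not for the raw Cy5 signal.

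Trpm5 encodes a calcium-activated cation channel of taste transduction that tuft cells share. It measured 0.99, 1.83 and 2.54 in double knockouts, -1.71, 0.14 and 1.01 in p27 knockouts, -0.08, 0.9 and 1.79 in stathmin knockouts, and 0.28, 0.77 and 0.97 in wild type. By the ratio, the lowest double knockout array was just above the highest wild-type array and just below the highest p27 knockout array. In raw Cy5, double knockouts (558 to 1615) overlapped with wild type (352 to 760) and not with the p27 knockout (179 to 423). Trpm5 was 3.46-fold higher in the double than in the p27 knockout (1.79 ± 0.40, adjusted p = 0.00466) and 1.33 on the log2 scale (adjusted p = 0.0271) without arrays 5 and 6. Over wild type the difference was 1.04 ± 0.40 (2.06-fold, adjusted p = 0.794). Each was above 0 on 6 of 6 slides, and 5 of 6 p27 knockout arrays were above background in Cy5. The lowest p27 knockout ratios, -1.71 in array 6 and -0.74 in array 3, had raw Cy3 signals of 488 and 559. On the other p27 knockout arrays Cy3 was 169 to 279, and in double knockouts 178 to 263. Stathmin knockout 2, at -0.08, had a Cy3 signal of 667. Low ratios thus went with a high fibroblast signal on these arrays, and its part in the differences and the interaction was not tested.

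In counts over the set, Avil, Fezf2 and Csn2 did not overlap between the double and the p27 knockout, 3 of 12 probes, against 6.01% of all probes that lay wholly higher in the double knockout. Csn2, Trpm5 and Avil did not overlap in the ratio between the double knockout and wild type, 3 of 12 probes, against 0.642% of all probes. The raw Cy5 signals of these 3 genes did overlap between those groups. With limma 0 of 12 passed in double knockout minus wild type (0.0114% of all probes), and 4 had an unadjusted p under 0.05 (4.63% of all probes, 3.55% as higher). The median difference of the 12 was 0.52 in that comparison with 10 above 0, against -0.02 over all probes with 47.2% above 0. In double minus p27 knockout the medians were 0.49 for the 12, with 8 above 0, and -0.08 over all probes, with 45.9% above 0. Both comparisons use the same double knockout arrays. The genes were chosen with earlier results of these data known, so the shares over all probes are given as descriptions and do not test the set.

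Without p27 knockout arrays 5 and 6, 3 of 12 probes passed between the double and the p27 knockout (Avil, Trpm5 and Csn2), against 15% of all probes. In that fit 1 passed against wild type (Avil, adjusted p = 0.0473), against 0.162% of all probes. With the Cy5 channel alone 3 probes passed between the double and the p27 knockout, Avil, Trpm5 and the brighter Tnfrsf11a probe (29.9% of all probes), and Csn2 was at 1.19 (adjusted p = 0.0689). With probes above background on all arrays 3 passed, Fezf2, Csn2 and the brighter Tnfrsf11a probe (29.2% of all), while Avil, Trpm5 and Cldn4 did not enter. With arrays weighted by their quality, 3 passed against wild type, where 1.17% of all probes did: Avil at 1.38 (adjusted p = 0.00768), Csn2 at 1.99 (adjusted p = 0.0266) and Fezf2 at 1.18 (adjusted p = 0.0403).

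Against the stathmin knockout 0 of 12 probes passed with limma (0.00568% of all probes), and 4 were higher in the double knockout at an unadjusted p under 0.05, where 1.16% of all probes had such a p and 0.654% as higher. These were Avil with a log2 difference of 0.74, Fezf2 with 0.95, Trpm5 with 0.88 and Csn2 with 1.35, all with a limma adjusted p of 1. Between these groups 0 of 12 probes were free of overlap, and 0.0512% of all probes lay wholly higher in the double knockout. The median of the 12 differences was 0.21, with 11 above 0, and -0.01 over all probes, with 47.7% above 0.

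The single knockouts were set against wild type next. In p27 knockout minus wild type 0 of 12 passed with limma (0.00568% of all probes) and 0 had an unadjusted p under 0.05, a level that 29.3% of all probes reached. The median difference was 0.04 with 7 above 0, against 0.07 over all probes with 54.8% above 0. In stathmin knockout minus wild type 0 passed (0.00284%) and 0 had an unadjusted p under 0.05 (2.37% of all probes), and Avil came closest with 0.55 ± 0.27 (adjusted p = 1). The interaction, which asks whether the double knockout departs from the sum of both single knockouts, gave 0 passing probes (0% of all) and 1 at an unadjusted p under 0.05 (18.4% of all). That probe was Trpm5, with a departure of 1.63 ± 0.56 above the sum (adjusted p = 0.258).

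**Figure D2:**
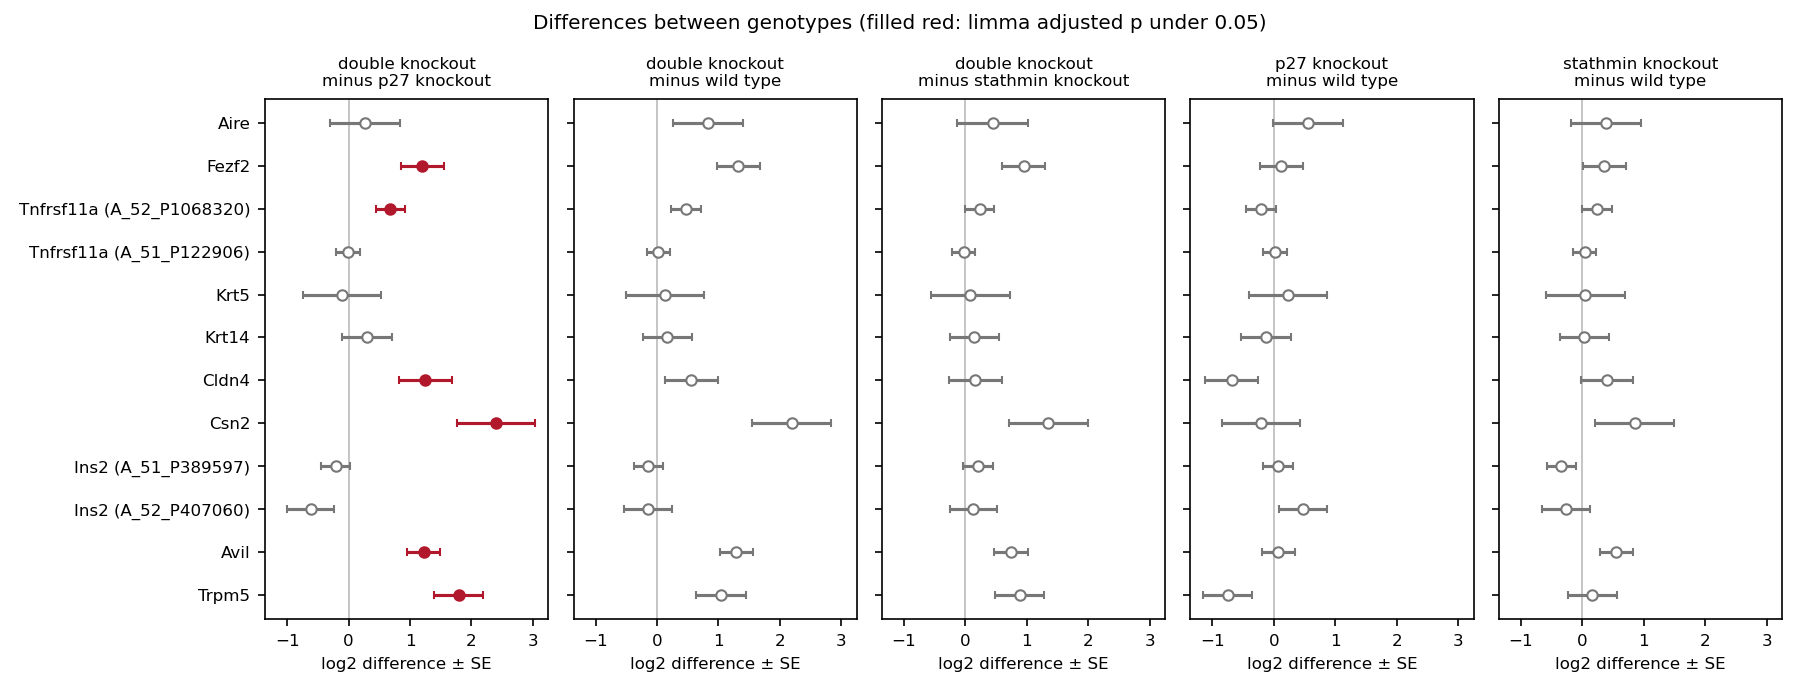
Log2 difference between genotypes (horizontal axis, point and SE) for the 12 probes in 5 comparisons, each panel the group named above minus the group named below. Filled points, all in double knockout minus p27 knockout, passed limma's test; Csn2 has the largest difference there at 2.40 and in double knockout minus wild type at 2.19.

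Brightness of the array moved with several members. Across the 24 arrays, Cldn4 correlated with the 99th percentile of Cy5 by r = 0.79 (rho 0.54, permutation adjusted p = 0.0004 over 10 genes), Trpm5 by 0.73 (rho 0.51, adjusted p = 0.0007), and Csn2 by 0.69 (rho 0.62, adjusted p = 0.000767). Tnfrsf11a (0.63, rho 0.57, adjusted p = 0.00267) and Fezf2 (0.47, rho 0.51, adjusted p = 0.0412) also passed, which made 5 of 10. Avil was at 0.41 (permutation adjusted p = 0.0671) and passed by its rho of 0.50 (permutation adjusted p = 0.0193), and Aire was at 0.38 (rho -0.19). Krt5 had an r of 0.16 and a rho of -0.50, which passed in the opposite direction (permutation adjusted p = 0.0193). Without the 2 arrays farthest in brightness, p27 knockouts 5 and 6, r was 0.56 for Cldn4, 0.50 for Trpm5, 0.57 for Csn2, 0.54 for Fezf2, 0.70 for Tnfrsf11a, 0.59 for Avil, -0.56 for Krt5 and -0.59 for Ins2. These made 8 of 10 that passed by r over the 22 arrays.

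Within genotypes, after each value was centred on its group mean, 3 of 10 passed: Cldn4 (0.67), Csn2 (0.64) and Trpm5 (0.57), and Avil was at 0.08. Centred and without p27 knockout arrays 5 and 6, 0 of 10 passed (lowest permutation p = 0.0164). With brightness as a covariate, 0 of 12 probes passed between the double and the p27 knockout, against 1 of all probes, and the differences were 1.13 for Avil, 0.82 for Trpm5, 0.65 for Fezf2, 0.61 for Csn2, 0.24 for Tnfrsf11a and 0.00 for Cldn4. Since double and p27 knockouts do not overlap in brightness, brightness and genotype cannot be told apart in that comparison. In double knockout minus wild type, where brightness overlaps, the same covariate left 1.26 for Avil, 1.14 for Fezf2, 1.63 for Csn2 and 0.73 for Trpm5, none past the adjusted threshold.

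**Figure D3:**
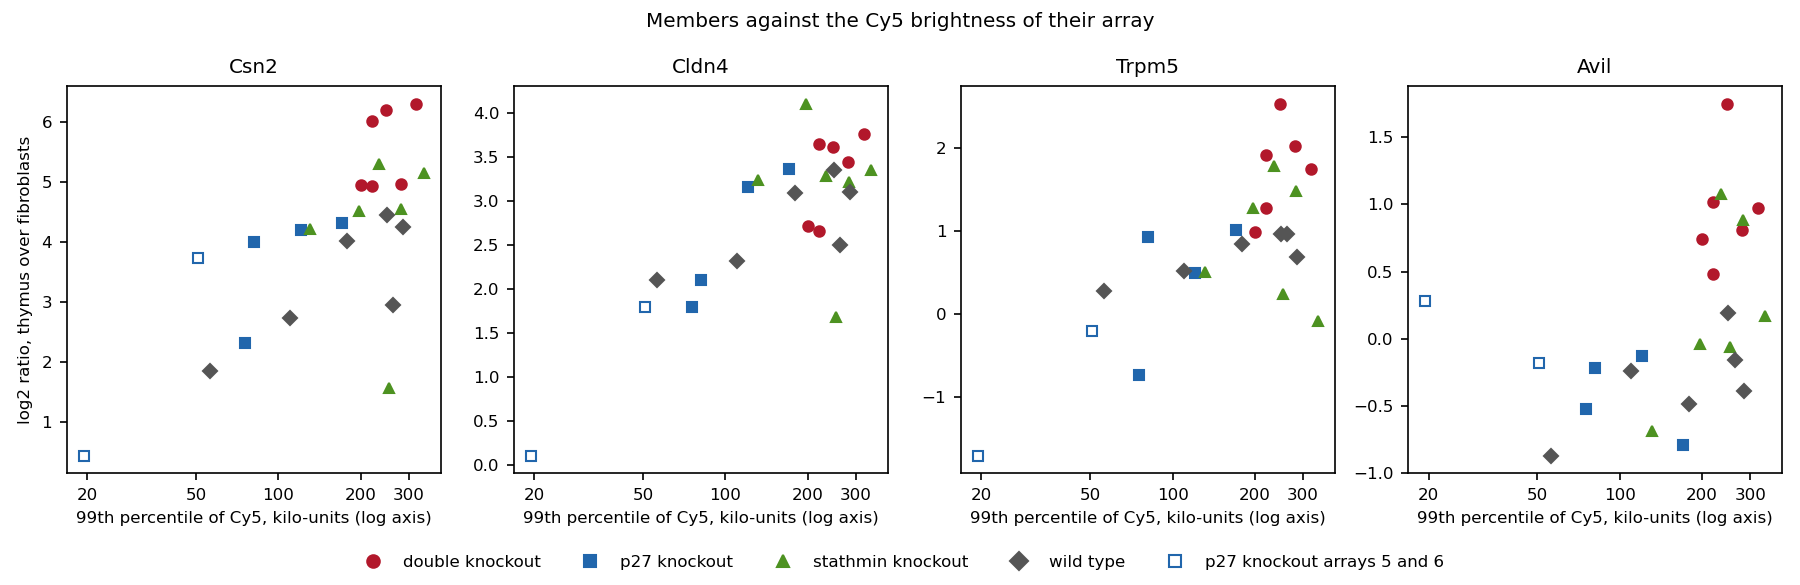
Log2 ratio of Csn2, Cldn4, Trpm5 and Avil (vertical axes) against the 99th percentile of the Cy5 signal of the same array in kilo-units (log axis), with 1 point per array coloured by genotype and p27 knockout arrays 5 and 6 open. The double knockouts sit at 200 to 320 and the p27 knockouts at 19.4 to 171, without overlap.

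Across the 24 arrays the other members were set against Aire, 9 relations adjusted together. Csn2 (r = 0.70, rho 0.34, permutation adjusted p = 0.00207), Krt5 (0.68, rho 0.56, adjusted p = 0.00297), Cldn4 (0.67, rho 0.42, adjusted p = 0.00297), Krt14 (0.65, rho 0.54, adjusted p = 0.00256) and Trpm5 (0.57, rho 0.31, adjusted p = 0.00907) passed by Pearson's r. By Spearman's rho only Krt5 and Krt14 did (permutation adjusted p = 0.0334 each). Fezf2 (0.41), Tnfrsf11a (0.35), Avil (0.14) and Ins2 (0.10) did not pass. Without the 2 arrays farthest in Aire, p27 knockout 6 and wild type 4, r was 0.44 for Csn2, 0.42 for Krt5, 0.35 for Cldn4, 0.44 for Krt14 and 0.26 for Trpm5. At that point Csn2 (permutation p = 0.0433) and Krt14 (permutation p = 0.0403) had an unadjusted p under 0.05, and Krt5 (permutation p = 0.0552), Cldn4 (permutation p = 0.105) and Trpm5 (permutation p = 0.244) did not. With values centred by genotype and without the same arrays, r was 0.66 for Cldn4 (permutation p = 0.00574), 0.62 for Csn2 (permutation p = 0.0167), 0.53 for Trpm5 (permutation p = 0.0212), 0.52 for Krt14 (permutation p = 0.0269) and 0.35 for Krt5 (permutation p = 0.217).

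Within the single genotypes, of 6 arrays each, the correlation of Csn2 with Aire was 0.61 in double knockouts, 0.99 in p27 knockouts, 0.84 in stathmin knockouts and 0.39 in wild type. That of Cldn4 was 0.78 in double knockouts, 0.93 in p27 knockouts, 0.90 in stathmin knockouts and 0.29 in wild type. That of Krt5 was -0.53 in double knockouts, against 0.84 in p27 knockouts, 0.45 in stathmin knockouts and 0.41 in wild type. For Fezf2 it was 0.92 in double knockouts, 0.07 in p27 knockouts, 0.73 in stathmin knockouts and 0.52 in wild type. Aire, Csn2 and Cldn4 were each lowest of their group in p27 knockout 6 (-0.27, 0.44, 0.11) and in stathmin knockout 1 (1.42, 1.56, 1.69). Centred by genotype and without p27 knockouts 5 and 6, wild type 4 and stathmin knockout 1, r with Aire was 0.40 for Csn2 (permutation p = 0.148). For Cldn4 it was 0.52 (permutation p = 0.0477). With p27 knockout arrays 5 and 6 left out, Fezf2 correlated with Aire by r = 0.63 over 22 arrays (permutation adjusted p = 0.0179) and Krt5 by 0.35 (adjusted p = 0.164). By rho Fezf2 did not pass there (0.41, permutation adjusted p = 0.132). Its r was 0.36 (permutation p = 0.122) when wild type 4 and stathmin knockout 1, then farthest in Aire, were also left out.

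**Figure D4:**
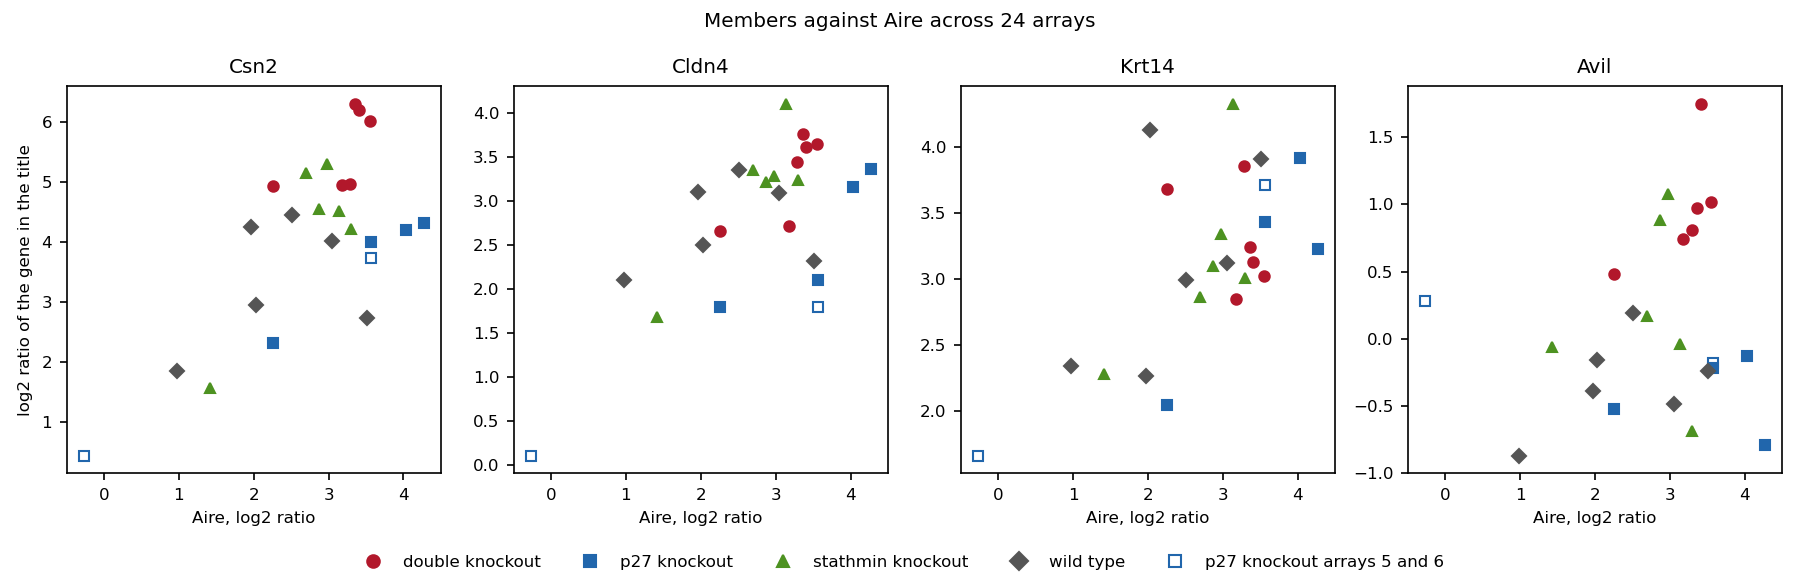
Log2 ratio of Csn2, Cldn4, Krt14 and Avil (vertical axes) against that of Aire on the same array (horizontal axis), 24 arrays coloured by genotype, with p27 knockout arrays 5 and 6 open. Correlations over all arrays were 0.70, 0.67, 0.65 and 0.14; p27 knockout 6 lies at the lower left for the genes other than Avil.

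The genes most like Aire were taken by Pearson correlation over the 22 arrays without p27 knockouts 5 and 6, among 16318 named genes. They were Alox12e (0.91), an epidermal-type lipoxygenase, Amz1 (0.91), a metalloprotease, Calca (0.90), which encodes calcitonin, Wfdc18 (0.89), and Saa2 (0.88), a serum amyloid. Over all 24 arrays these values were 0.90 to 0.94. The genes most like Krt5 were Tbata (0.87), Egfl9, Rap1gap, Lmbr1 and Psmb11 (0.86 each), the last of which encodes the thymus-specific proteasome subunit of cortical epithelium. Over all 24 arrays Tbata and Psmb11 were at 0.94 and 0.96, while Egfl9, Rap1gap and Lmbr1 were at 0.04, 0.18 and -0.17. These correlations were picked as the highest of many and are given as descriptions.

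Other genes of the medullary programme were followed as lists, with 1 probe per gene, the brightest. In double knockout minus wild type 0 genes of these lists passed, so signs, medians and counts at an unadjusted p are given for that comparison. Genes that passed against the p27 knockout beyond the named pair per list are named after their values were seen. Without p27 knockout arrays 5 and 6, 5275 of 35185 probes (15%) passed in double minus p27 knockout, and the counts of each list are given both ways.

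Of 12 basal and keratin genes of immature medullary cells, 10 were above 0 against wild type (median 0.35), with Cldn3 at 1.11 and the integrin Itgb4 at 0.54. In double minus p27 knockout 1 rose, Cldn4, and 0 without arrays 5 and 6. Of 17 genes of medullary maturation and Aire partners, 13 were above 0 against wild type (median 0.32), with the transcription factor Utf1 at 0.82 ± 0.23 (adjusted p = 0.333). Against the p27 knockout 3 rose, the costimulatory ligand Cd86 (1.94 ± 0.47, adjusted p = 0.00655), Fezf2 and Utf1, and 1 fell, the DNA methyltransferase cofactor Dnmt3l. Without arrays 5 and 6, Cd86 (1.36, adjusted p = 0.0487) and Utf1 rose and 0 fell.

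Of 14 genes of RANK and NF-kB signalling, 9 were above 0 against wild type (median 0.14) and 1, Tnfrsf11a, rose against the p27 knockout. Without arrays 5 and 6, 0 rose and 1 fell, the lymphotoxin gene Ltb. The decoy receptor Tnfrsf11b, osteoprotegerin, was at -0.97 ± 0.37 in double minus p27 knockout (adjusted p = 0.0503), and the lymphotoxin receptor Ltbr at 0.51 ± 0.26 in double knockout minus wild type (adjusted p = 1).

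Of 27 listed Aire-dependent self-antigens, 26 were on the array and 21 passed the filter. Against wild type 13 of the 21 were above 0 (median 0.49). Of these genes 8 had an unadjusted p under 0.05, all higher in the double knockout, as 3.55% of all probes did. The count was not particular to this list. It was 7 of 16 pan epithelial, 5 of 22 tuft cell, 3 of 13 Fezf2-dependent or Aire-independent and 3 of 13 cornified genes. In the remaining lists it was 2 of 17 maturation, 2 of 13 microfold and secretory, 0 of 12 keratin and 0 of 14 RANK pathway genes. Lists were chosen with earlier results of these data known, so these counts are descriptions. The casein Csn1s2a was 1.05 ± 0.27 and the pancreatic polypeptide gene Ppy 1.04 ± 0.27 above wild type (limma adjusted p = 0.242 each). Csn1s2a was above background in Cy5 on 5 of 6 double knockout and 3 of 6 wild-type arrays. Against the p27 knockout 6 rose, Ppy (1.12 ± 0.27, adjusted p = 0.00672), Csn2, Csn1s2a, the apolipoprotein Apoa4, the trefoil peptide Tff3 and transferrin, Trf. In that comparison 3 fell, the urinary protein Mup4 (-2.13 ± 0.47, adjusted p = 0.0045), the mucin Muc6 and the neutrophil protein S100a9. Without arrays 5 and 6, 3 rose (Csn2, Apoa4 and Ppy, the last by 1.16) and 3 fell (Mup4 at -1.75, S100a8 and S100a9). The level of the list, its median ratio per array, was 0.73 to 1.45 in double knockouts, 0.07 to 1.23 in p27 knockouts, 0.09 to 1.33 in stathmin knockouts and 0.23 to 0.97 in wild type, so the groups overlapped.

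Among 13 antigens listed as Fezf2-dependent or Aire-independent, 11 were above 0 against wild type (median 0.42), with C-reactive protein (Crp) at 0.63 ± 0.21 (adjusted p = 0.523). Against the p27 knockout 1 rose, the apolipoprotein gene Apoc3 at 1.14 ± 0.32 (adjusted p = 0.0125), and 1 fell, the inner-ear gene Coch at -1.27 ± 0.48 (adjusted p = 0.049), and without arrays 5 and 6 they were at 0.86 (Apoc3, adjusted p = 0.0751) and -0.50 (Coch, adjusted p = 0.321) and 0 of the list passed. Of 22 tuft cell genes, Avil and Trpm5 among them, 16 were above 0 against wild type (median 0.38). Genes that rose against the p27 knockout included Avil, Trpm5, Sh2d7, the leukotriene synthase Ltc4s and the phospholipase Plcb2, and 2 fell, the acetylcholine synthase Chat and Dclk1. Without arrays 5 and 6, 4 rose (Avil, Trpm5, Sh2d7 and the kinase Bmx) and 1 fell (Gfi1). The SH2 adaptor gene Sh2d7 was 0.91 ± 0.23 above wild type (adjusted p = 0.206). The level of the tuft list was 0.66 to 1.35 in double knockouts, -0.08 to 0.68 in p27 knockouts, 0.26 to 1.09 in stathmin knockouts and -0.15 to 0.69 in wild type.

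Pou2f3, Il25 and Dclk1, further genes that define tuft cells, were read beside them. Pou2f3, the transcription factor that tuft cells need, was well above background in Cy5 on 0 of 6 double knockout, 6 of 6 p27 knockout, 2 of 6 stathmin knockout and 2 of 6 wild-type arrays, with ratios between -0.81 and 0.24. Il25, the tuft cytokine, was above background on 2 of 6 double knockout, 5 of 6 p27 knockout, 3 of 6 stathmin knockout and 3 of 6 wild-type arrays. The share of all gene spots above background in Cy5 was 62.8 to 77.9% in double knockouts and 76.2 to 91.1% in p27 knockouts. It was 66.9 to 83.5% in stathmin knockouts and 65.1 to 87.7% in wild type. Dclk1, a kinase of gut tuft cells, lay between -2.74 and -1.78 in double knockouts, between -2.22 and 1.15 in p27 knockouts and between -3.04 and -1.58 in wild type.

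Of 13 genes of the later, cornified medullary stage, 8 were above 0 against wild type (median 0.26), with the filaggrin gene Flg at 0.72 ± 0.27 (adjusted p = 0.73). In double minus p27 knockout 3 rose, the desmoglein Dsg1a (1.54 ± 0.39, adjusted p = 0.00844) and the epithelial transcription factors Elf3 and Grhl1, and 1 fell, corneodesmosin, Cdsn (-2.16 ± 0.52, adjusted p = 0.00687). With p27 knockout arrays 5 and 6 left out, Flg rose and Cdsn fell (-1.19, adjusted p = 0.044), and Dsg1a was at 1.17 (adjusted p = 0.0565). Of 13 microfold and secretory genes, 8 were above 0 against wild type (median 0.32), with the neuroendocrine factor Insm1 at 1.21 and the microfold receptor Gp2 at 1.07 (adjusted p = 1 each). Set against the p27 knockout, 4 rose, the ghrelin gene Ghrl (0.58 ± 0.17, adjusted p = 0.0164), Insm1, Gp2 and the cilia factor Foxj1, and 1 fell, Tnfaip2 (-1.42 ± 0.40, adjusted p = 0.0125). Without those arrays Ghrl rose (0.58, adjusted p = 0.0415) and Tnfaip2 fell (-0.73, adjusted p = 0.0491).

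Genes of epithelium in general were followed beside these lists. Of 16 pan epithelial genes, 16 were above 0 against wild type (median 0.74). Over the p27 knockout 5 rose (Foxn1, Esrp1, Epcam, Cldn7 and Ovol1) and 0 fell, and without arrays 5 and 6 Foxn1 and Esrp1 were among those that rose and 0 fell. Foxn1, the master regulator of thymic epithelium, was 1.07 ± 0.27 above wild type (limma adjusted p = 0.231) and 1.36 ± 0.27 above the p27 knockout (adjusted p = 0.0037), or 1.28 without arrays 5 and 6 (adjusted p = 0.0194). The epithelial splicing factor Esrp1 was 1.51 ± 0.39 above wild type (adjusted p = 0.242) and 2.39 ± 0.39 above the p27 knockout (adjusted p = 0.00241), or 2.16 without those arrays (adjusted p = 0.0183). The pan epithelial level was 2.44 to 3.8 in double knockouts, -0.07 to 2.27 in p27 knockouts, 1.86 to 3.48 in stathmin knockouts and 1.37 to 2.46 in wild type.

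Markers of other cells were read on the same arrays, and their part in the differences of the members was not tested. Of 14 cortical epithelial genes 12 were above 0 against wild type (median 0.53), with list levels of 3.06 to 3.76 in double knockouts and 2.26 to 2.72 in wild type that did not overlap. Endothelial genes were above 0 in 10 of 10 (median 0.68), with levels of 1.29 to 3.19 in double knockouts and 0.47 to 2.15 in wild type. Skeletal muscle genes were above 0 in 11 of 12 (median 1.06), with levels of 0.34 to 5.23 in double knockouts and -0.84 to 4.66 in wild type. Genes of double-positive thymocytes were above 0 in 4 of 16 (median -0.26), with levels of 5.07 to 5.74 in double knockouts and 5.37 to 6.36 in wild type. Against the p27 knockout 8 of 12 fibroblast genes fell (median -1.11), with levels of -4.26 to -3.07 in double knockouts and -3.57 to -0.36 in p27 knockouts, and 7 of 12 adipocyte genes rose (median 1.43), with levels of 3.18 to 4.95 in double knockouts and -0.13 to 4.57 in p27 knockouts. In the same comparison 4 of 14 cortical epithelial genes rose and 1 fell (median 0.82), 3 of 12 skeletal muscle genes rose (1.5), 3 of 10 endothelial genes rose (0.84), 2 of 9 B cell genes rose (1.38), and 2 of 10 dendritic cell genes rose and 1 fell (0.52). Cortical levels were 3.06 to 3.76 in double knockouts and -1.13 to 2.88 in p27 knockouts, without overlap. Without arrays 5 and 6, 4 cortical genes rose and 1 fell (median 0.18), 1 muscle, 2 endothelial and 0 B cell genes rose, and 2 dendritic cell genes rose and 1 fell. In that fit 0 fibroblast genes passed (median -0.62), 2 adipocyte genes rose, and 8 of 16 double-positive thymocyte genes fell (median -0.61), of which 0 fell with all arrays. Among markers of neighbouring glands Pth, parathyroid hormone, was high in all groups, with medians of 5.14 in double knockouts and 5.62 in wild type. Tg, thyroglobulin, was close to the fibroblast level, with medians of -0.15 in double knockouts and -0.07 in wild type. Of the salivary gland markers, Amy1 had medians of 3.32 in double, 3.31 in p27 and 4.37 in stathmin knockouts and 3.25 in wild type. Bpifa2 was below the fibroblast level, with medians of -1.7 in double knockouts and -1.48 in wild type.

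**Figure D5:**
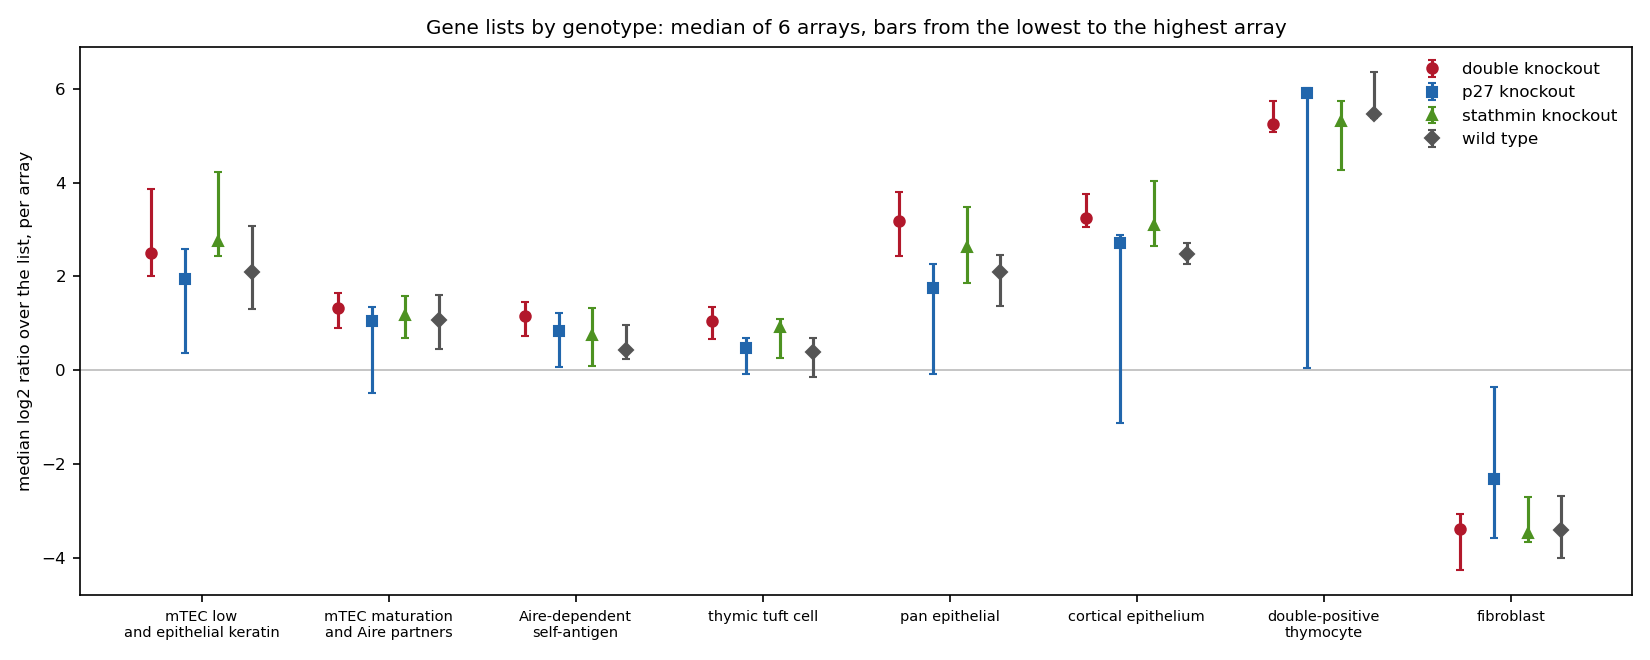
Median log2 ratio over the genes of each of 8 lists (vertical axis), per genotype, with the marker at the median of 6 arrays and bars from the lowest to the highest array. Pan epithelial genes lie at 2.44 to 3.8 in double knockouts and 1.37 to 2.46 in wild type.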

How the data were processed

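Thymus RNA (Cy5) was read against a common fibroblast pool (Cy3) on 24 arrays, with groups and replicate numbers from the labels. The authors' scanner files hold the intensity of spots and local background in each channel, made per the file headers by Feature Extraction software (Agilent, version 9.1.3.1) without background subtraction. The deposited log10 ratios had been dye-normalized, per the file headers. A separate log2 table was deposited, of unstated origin; it followed the mean brightness of both channels (r at least 0.98 per array) and not the ratio (r at most 0.227), so its direction relative to the ratio is unknown. No dyes were swapped.

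Log2 ratios were computed here with limma 3.58.1 in R 4.3.3 (data.table, version 1.17.8): normexp (offset 50), loess within arrays with control spots at weight 0, scanner outliers left out (68 per array on average), and spots of a probe averaged. Of 41174 gene probes, 35185 had Cy5 well above background on at least 6 of 24 arrays and were tested. All adjusted p-values of probes are limma's, from 1 fit of all 24 arrays by genotype, with Benjamini-Hochberg adjustment over all tested probes (threshold 0.05). The fit was tested on simulated data for double knockout minus wild type, on 35185 probes, where it recovered 37% of changes of log2 size 1 and 75% of size 2 with 6 false calls. Correlations used 100000 permutations in Python 3.11.15 (numpy 2.4.6, scipy 1.17.1). The number of arrays limits the precision, and the labels call the mice separate replicates.

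Members and lists were chosen with earlier results of these data known. The text names the members, the 2 genes of each medullary or epithelial list with the lowest p in a comparison, defining markers of other cells, and the 5 genes most like Aire and Krt5. Alternatives concerned background, normalization, channel, filter, probe choice, slide, pairing, array weights, the arrays in the fit and single animals. The brightness covariate, the fit without the 3 dimmest arrays, the lists without p27 knockout arrays 5 and 6, and the centred correlations without p27 knockout arrays 5 and 6 were chosen after seeing the data. Some genes of the lists are not reported here.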

Additional observations from a re-analysis of the deposited data

Results flagged for a closer look

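Of 48 sets of 6 arrays (a probe in a genotype), 5 held an array far from its nearest neighbour by Dixon's test, while chance gives about 1 in 20. Aire in double knockout 4 was at 2.26, against 3.18 for the next array. In stathmin knockout 1, the ratios of 3 genes stood low together: Aire at 1.42 (next 2.70), Cldn4 at 1.69 (next 3.22) and Csn2 at 1.56 (next 4.22). Their raw Cy5 signals on that array were 3607, 3937 and 3040. These lay within the stathmin knockout ranges of 2200 to 4100, 1508 to 4283 and 1834 to 6749. The low values thus hold for the ratio and not for the raw Cy5 signal. Krt5 in p27 knockout 6, the dimmest array, was at 0.36 (next 4.77). No cause was tested.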

How the results depend on the processing

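Of the differences and correlations that passed with all arrays, 0 changed sign under another setting. Some that did not pass changed sign when single arrays were left out, such as double minus p27 knockout for Aire (-0.37 to 0.54) and Krt5 (-0.94 to 0.28). Between the double and the p27 knockout, 6 of 12 probes passed, and 3 passed with the Cy5 channel alone, with probes above background on all 24 arrays only (fewer probes enter), and without p27 knockout arrays 5 and 6, while 0 passed with brightness as a covariate. Leaving out single arrays gave 4 to 6, with Cldn4 in 17 and Tnfrsf11a in 18 of the 24 such fits, and Krt5 (lower) in 1. Against wild type the count was 0, or 3 with array weights (1.17% of all probes) and 1 (Avil) without p27 knockout arrays 5 and 6 (0.162% of all). In p27 knockout minus wild type it was 0, or 1 with array weights (Aire, higher at 1.21, adjusted p = 0.0417, where 11.8% of all probes passed) and 3 in the deposited table (Cldn4, Krt14 and Tnfrsf11a, lower, where 26.3% passed). Leaving out single arrays kept the count at 0 in the other comparisons. The cause of these changes was not tested. By Pearson's r, correlation with Aire became stronger for Fezf2 without p27 knockout arrays 5 and 6 (0.63) and when also centred by genotype (0.70). Its rho passed in neither (0.41 and 0.42, permutation adjusted p = 0.132 and 0.195). Without wild type 4 and stathmin knockout 1 as well, r was 0.36 and 0.50 (permutation p = 0.122 and 0.0751). Correlation with Aire lost its threshold for Trpm5 without p27 knockout arrays 5 and 6 (0.40), and for Krt5 without them (0.35), when centred (0.70, adjusted p = 0.0775) and with both (0.18).

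With the replicate number as a block, 6 probes passed between the double and the p27 knockout and 0 in the other comparisons. Deviations of same-numbered arrays correlated over 0.1 in 14 of 36 pairs (-0.53 to 0.61). On the same slide it was 20 of 36 pairs, and with the slide as a block 6 probes passed. Replicate and slide numbers were the same except in p27 knockouts, whose replicates 1 to 6 lay on slides 4, 5, 6, 1, 2 and 3. Pairs without a p27 knockout thus enter both counts, so these counts do not settle whether the numbers pair the mice. Signals near background limit Ins2, the dimmer Tnfrsf11a probe, Avil and Trpm5.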
